A study of Mus musculus with 6 samples.

Results

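The tumour necrosis factor (TNF) receptor and ligand superfamily was followed across the 6 libraries of a wounding experiment. Its members were taken by symbol: every gene of the count table whose symbol starts with Tnfrsf or Tnfsf and a digit, and Ngfr, Fas, Cd40, Ltbr, Eda2r, Edar, Lta, Ltb and Tnf. This gave 41 genes of the 46078 gene identifiers in the table, of which 26 encode receptors, 14 encode ligands and 1, Tnfsf13os, is an antisense RNA. The cells were MLE12, a mouse lung epithelial line derived from tumours that carried simian virus large T antigen under the surfactant protein C promoter. The groups, with 1 library each, were lines labelled Lingo1 KO, Lingo2 KO, Lingo3 KO and TROY KO collected 24 h after a monolayer was scratched with a pipet tip, wild-type parental cells collected 24 h after the same scratch, and wild-type parental cells left unscratched. How the knockouts were made, and whether a line was grown from 1 cell, is not given in the sources used here. There were no replicates, so no spread between cultures could be measured and no p-value was computed.

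Ligands of the superfamily form trimers, on the cell surface or after shedding, and bind receptors with cysteine-rich repeats outside the cell. Receptors with a death domain recruit TRADD or FADD and can lead to caspase activation, and receptors without one bind TRAF adaptors that lead to NF-kB and JNK signalling. In airway and alveolar epithelium the TNF receptors are known for inflammatory gene induction and cell death. TROY, the product of Tnfrsf19, and Ngfr are the receptors that can join LINGO1 and the Nogo receptor in neurons, where the complex was described.

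Between 28109825 and 30776294 reads were counted in genes per library. Levels are given as CPM, counts per 1000000 reads after TMM scaling, and the 3 counts used as a floor correspond to 0.0984 to 0.108 CPM. A gene entered the comparisons when its mean over the 6 libraries was at least 1 CPM, which 12078 genes did. A fold is the ratio of scaled counts with its exact 95% Clopper-Pearson interval in brackets, which covers counting error only, because reads are not independent molecules and cultures were not repeated. A gene is called higher or lower when its fold was at least 2 and the interval bound nearest to 1 was beyond 1.5-fold. The share of uniquely aligned reads that fell in no counted feature was 4.98% to 6.41% in the mutant libraries, against 8.02% in the scratched and 7.80% in the unscratched parental library. This share moves with the mutant comparisons, and its part in them was not tested.

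The targeted genes gave no check of the labels. Tnfrsf19, which encodes TROY, had 4, 3, 4 and 1 counts in the libraries labelled Lingo1 KO, Lingo2 KO, Lingo3 KO and TROY KO, against 1 count in the scratched and 0 in the unscratched parental library. The 13 counts in all are too few to show a loss in the library labelled TROY KO. Lingo2 had 0 counts in every library and Lingo3 had 1 count in 1 library. Lingo1 stood at 57.0 CPM in the library labelled Lingo1 KO, against 24.5 CPM in scratched parental cells. Its RNA was thus not lower there, and whether the Lingo1 protein was lost cannot be read from these counts. The library names below are labels only.

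Of the 41 members, 21 reached the level for comparison, 17 of them receptors and 4 of them ligands. The other 20 did not: 4 had 0 counts in every library (Tnfrsf13b, Cd40, Tnfsf14 and Tnfsf11) and 16 had at least 1 count. Of the 21, 16 were at or above 1 CPM in each of the 6 libraries. For 12 of the 21, the highest library was less than 2-fold above the lowest. In the 5 comparisons of the design (4 mutants against scratched parental cells, and scratched against unscratched parental cells), 8 members passed the size rule at least once and 13 in none.

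Levels differed widely between members, and each of the 4 most abundant receptors varied by less than 2-fold over the libraries. On the per-length scale of the deposited RPKM, Tnfrsf1a, the main death domain receptor of TNF, ranged from 186 to 234 RPKM over the 6 libraries. Ltbr, the lymphotoxin beta receptor, ranged from 125 to 152 RPKM, and Tnfrsf12a, the receptor of the cytokine TWEAK, from 93.6 to 118 RPKM. Tnfrsf1b, the second receptor of TNF, ranged from 61.0 to 104 RPKM and Tnfrsf21, which encodes death receptor DR6, from 23.1 to 46.6 RPKM. Tnfrsf10b, the mouse TRAIL receptor, followed at 12.1 to 19.1 RPKM. The ranges of Ltbr and Tnfrsf1a did not touch, nor did those of Tnfrsf21 and Tnfrsf10b, whereas Tnfrsf12a and Tnfrsf1b overlapped. Among ligands, Tnfsf12, which encodes TWEAK, ranged from 9.52 to 11.2 RPKM. Tnfsf9, which encodes the ligand of 4-1BB, ranged from 5.23 to 11.2 RPKM and was above Tnfsf12 in the library labelled Lingo3 KO.

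**Figure D1:**
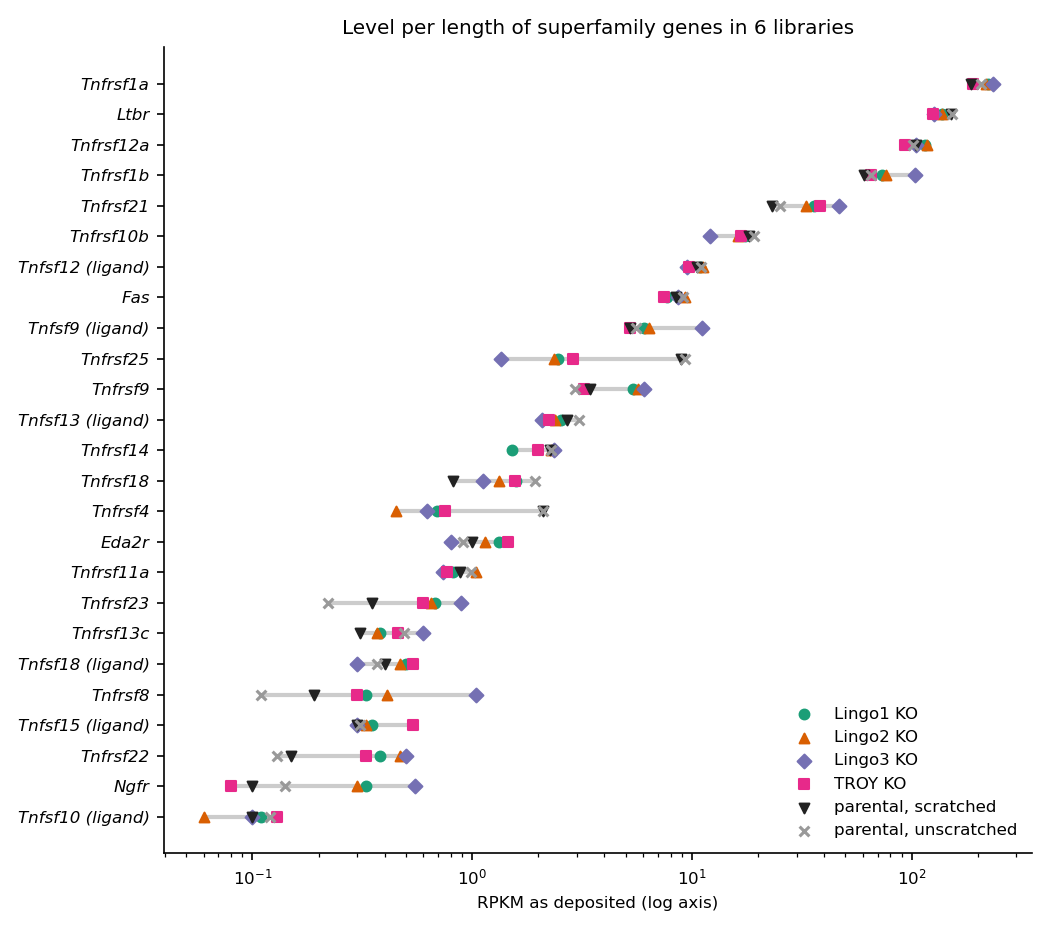
Deposited RPKM (log axis) in each of the 6 libraries for the 25 members that the authors' table lists, 1 symbol per library, ordered by level from top to bottom, with a grey line over the range. Tnfrsf1a, Ltbr and Tnfrsf12a are tight, whereas Tnfrsf25 spreads from 1.36 to 9.30 RPKM and Tnfrsf8 from 0.11 to 1.04 RPKM.

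Tnfrsf25 and Tnfrsf4 were lower in each of the 4 mutant libraries than in scratched parental cells. Tnfrsf25 encodes death receptor DR3, which carries a death domain and binds the ligand TL1A, and Tnfrsf4 encodes OX40, a costimulatory receptor best known on activated T cells. Tnfrsf25 stood at 4.12, 3.96, 2.30 and 4.89 CPM in the libraries labelled Lingo1 KO, Lingo2 KO, Lingo3 KO and TROY KO, against 14.9 CPM in scratched and 15.7 CPM in unscratched parental cells. The raw counts behind these values were 114, 112, 70 and 147 in the mutants, against 452 and 449. Both parental libraries were high, the 4 mutants were low, and the groups did not overlap. All 4 mutants were also below both parental libraries for 21.9% of all genes compared. In bulk RNA, fewer cells with the transcript and less of it per cell cannot be told apart.

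The folds of Tnfrsf25 against scratched parental cells were 3.61-fold lower (2.93 to 4.47) in the library labelled Lingo1 KO and 3.75-fold lower (3.04 to 4.65) in that labelled Lingo2 KO. They were 6.47-fold lower (5.02 to 8.45) in that labelled Lingo3 KO and 3.04-fold lower (2.52 to 3.69) in that labelled TROY KO. Between mutants, Tnfrsf25 was also lower in the library labelled Lingo3 KO than in that labelled TROY KO (2.13-fold, 1.59 to 2.87), a comparison without any parental library. Its known ligand gene Tnfsf15, which encodes TL1A, lay between 1.02 and 1.83 CPM in the mutants and at 1.02 CPM in scratched and 1.05 CPM in unscratched parental cells, and passed the rule in no comparison.

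Tnfrsf4 stood at 0.758, 0.495, 0.689 and 0.831 CPM in the libraries labelled Lingo1 KO, Lingo2 KO, Lingo3 KO and TROY KO, against 2.30 CPM in scratched and 2.34 CPM in unscratched parental cells. These values rest on 14 to 25 counts per mutant library, against 70 and 67 counts in the parental libraries. The 4 mutants lay below both parental libraries, as they did for 21.9% of all genes compared. Tnfrsf4 was 3.04-fold lower (1.84 to 5.21), 4.65-fold lower (2.59 to 8.93), 3.34-fold lower (2.03 to 5.73) and 2.77-fold lower (1.73 to 4.56) in the same order of mutants. With a mean of 0.693 CPM in the mutants and 2.32 CPM in the parental libraries, it met the minimum level only through the parental libraries. Its ligand gene Tnfsf4 had 5 counts over all 6 libraries.

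Tnfrsf25, Tnfrsf4 and Tnfrsf18 lie on chromosome 4, at chr4:152115934-152120119, chr4:156013843-156016612 and chr4:156026164-156028895 on the plus strand of build GRCm38. The starts of Tnfrsf4 and Tnfrsf18 are 12321 bases apart, and those of Tnfrsf25 and Tnfrsf4 are 3897909 bases apart. Their promoter windows from RefSeq (build GRCm38.p6), 300 bases each on the plus strand, are printed. Tnfrsf18 differs from Tnfrsf25 and Tnfrsf4 in which libraries are high. Capitals mark letters that match a searched motif: AP-1 (TGANTCA), the kappaB motif by its name, the GC box (GGGCGG) or the TATA box (TATAAA), each on both strands. RefSeq lists a pair of start sites for Tnfrsf25.
Tnfrsf25 at chr4:152115684-152115983: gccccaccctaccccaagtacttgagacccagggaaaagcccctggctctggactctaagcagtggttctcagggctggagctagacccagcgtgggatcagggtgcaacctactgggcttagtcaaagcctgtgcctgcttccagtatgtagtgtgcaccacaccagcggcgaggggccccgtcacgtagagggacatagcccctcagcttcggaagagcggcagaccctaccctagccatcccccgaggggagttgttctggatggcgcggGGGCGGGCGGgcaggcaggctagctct
Tnfrsf25 at chr4:152116093-152116392: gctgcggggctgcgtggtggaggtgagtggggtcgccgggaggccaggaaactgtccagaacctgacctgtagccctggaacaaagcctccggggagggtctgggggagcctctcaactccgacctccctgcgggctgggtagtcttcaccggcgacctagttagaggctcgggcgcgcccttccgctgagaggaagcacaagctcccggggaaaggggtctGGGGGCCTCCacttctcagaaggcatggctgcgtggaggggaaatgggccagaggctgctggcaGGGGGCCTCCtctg
Tnfrsf4 at chr4:156013445-156013744: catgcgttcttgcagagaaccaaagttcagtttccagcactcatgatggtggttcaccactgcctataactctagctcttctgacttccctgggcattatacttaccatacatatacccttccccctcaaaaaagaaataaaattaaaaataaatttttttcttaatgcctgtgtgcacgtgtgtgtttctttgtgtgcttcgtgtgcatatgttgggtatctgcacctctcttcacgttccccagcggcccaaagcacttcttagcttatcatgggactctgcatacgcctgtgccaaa
Tnfrsf18 at chr4:156026072-156026371: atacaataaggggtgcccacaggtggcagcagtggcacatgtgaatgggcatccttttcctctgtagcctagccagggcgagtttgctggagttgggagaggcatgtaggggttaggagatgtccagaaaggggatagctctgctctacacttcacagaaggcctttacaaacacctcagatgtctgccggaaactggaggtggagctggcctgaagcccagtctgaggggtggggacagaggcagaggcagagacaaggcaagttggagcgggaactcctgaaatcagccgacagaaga

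The upstream window of Tnfrsf25 held 2 overlapping GC boxes, at 24 and 28 bases after the start site. The second window held 2 kappaB matches. The windows of Tnfrsf4 and Tnfrsf18 held none of the 4 motifs, which says only that these letters are not in these 300 bases. Over 32851 RefSeq promoter windows of the same length, 35.7% held a GC box, 8.46% a kappaB match, 7.81% an AP-1 match and 13.6% a TATA box. Of the 17 compared members with a promoter entry, 12 held a GC box, 3 a kappaB match (Tnfrsf25, Tnfrsf8 and Tnfrsf9), 4 an AP-1 match and 2 a TATA box. A member counted when any of its windows held the motif, whereas the shares are per window and take in genes of any level. The member counts and the shares are therefore not on the same scale.

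In number, the lower calls stood at 2 of 21 members (9.52%) in each of the 4 mutant comparisons, and no support is drawn from this share, since Tnfrsf4 met the minimum level only where it was high. Over all genes compared, the lower calls were 1.67% for the library labelled Lingo1 KO, 1.38% for Lingo2 KO, 2.56% for Lingo3 KO and 1.18% for TROY KO. The 2 members were Tnfrsf25 and Tnfrsf4 each time. The 4 comparisons share the scratched parental library, so the recurrence is a description; 0.836% of all genes compared were lower in all 4. No member was higher in all 4, where 0.729% of all genes were. With unscratched parental cells in its place, Tnfrsf25 and Tnfrsf4 were lower in all 4 mutants, where 0.662% of all genes were.

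**Figure D2:**
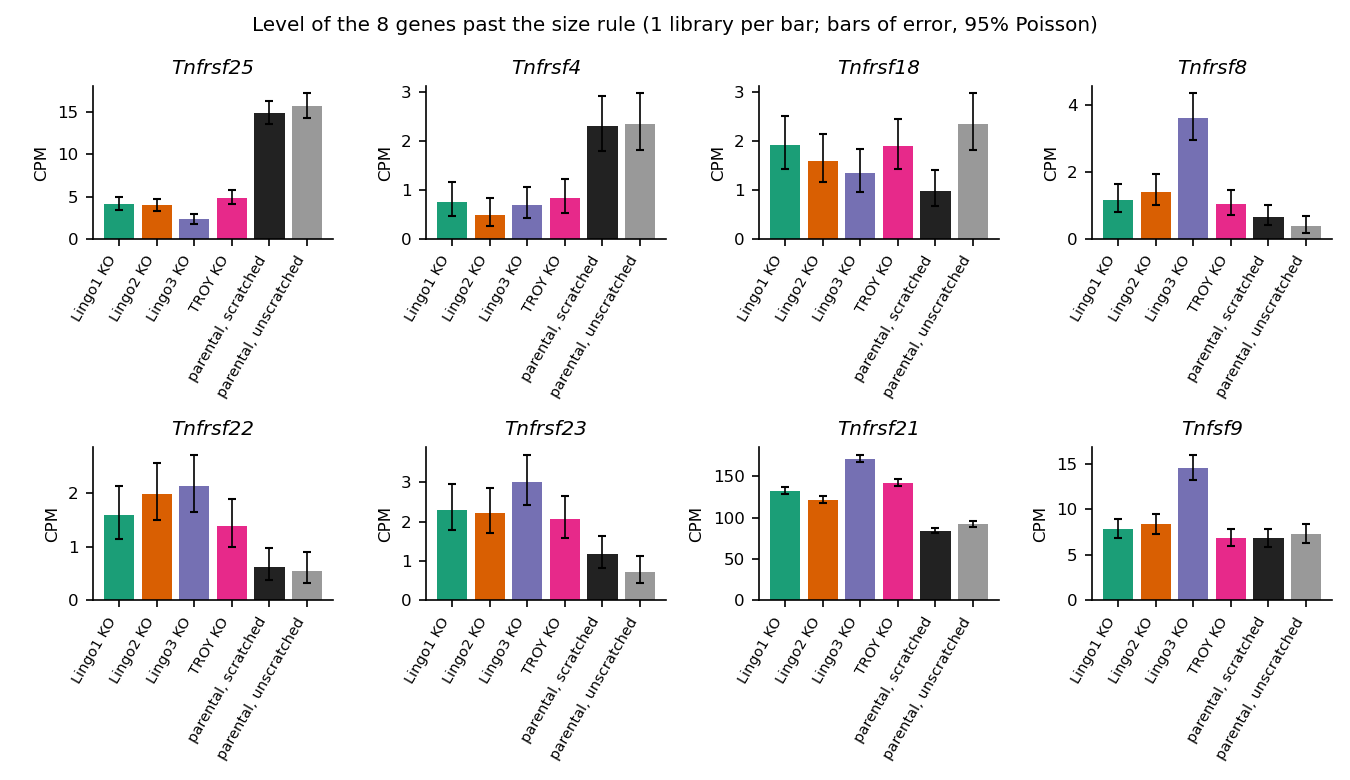
CPM of the 8 members that passed the size rule in at least 1 comparison, by library, with 1 bar per library and 95% Poisson intervals as error bars, which cover counting error only. Tnfrsf25 and Tnfrsf4 are low in the 4 mutants and high in both parental libraries, and Tnfrsf8 is highest in the library labelled Lingo3 KO at 3.61 CPM.

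No compared neighbour of Tnfrsf25 was called lower, and a few of those of Tnfrsf4 were. Within 500000 bases of Tnfrsf25, none of 14 compared neighbours was called lower in any mutant. A log2 fold below 0 was seen for 4, 4, 2 and 5 of them in the libraries labelled Lingo1 KO, Lingo2 KO, Lingo3 KO and TROY KO. The lowest neighbour, Zbtb48, stood at -0.82, -0.71, -0.85 and -0.78 in the same order. The median log2 fold of the 14 was 0.07, 0.19, 0.28 and 0.09. Within the same distance of Tnfrsf4, 3, 2, 3 and 2 of 29 neighbours outside the superfamily were called lower in the same order. This was a larger share than the 1.67%, 1.38%, 2.56% and 1.18% of all genes, and the medians were -0.14, -0.06, 0.11 and -0.15. Among those neighbours were Ccnl2, in all 4 mutants, C1qtnf12, in the 3 Lingo lines, and Perm1, in the library labelled Lingo3 KO, all named after their values were seen.

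**Figure D3:**
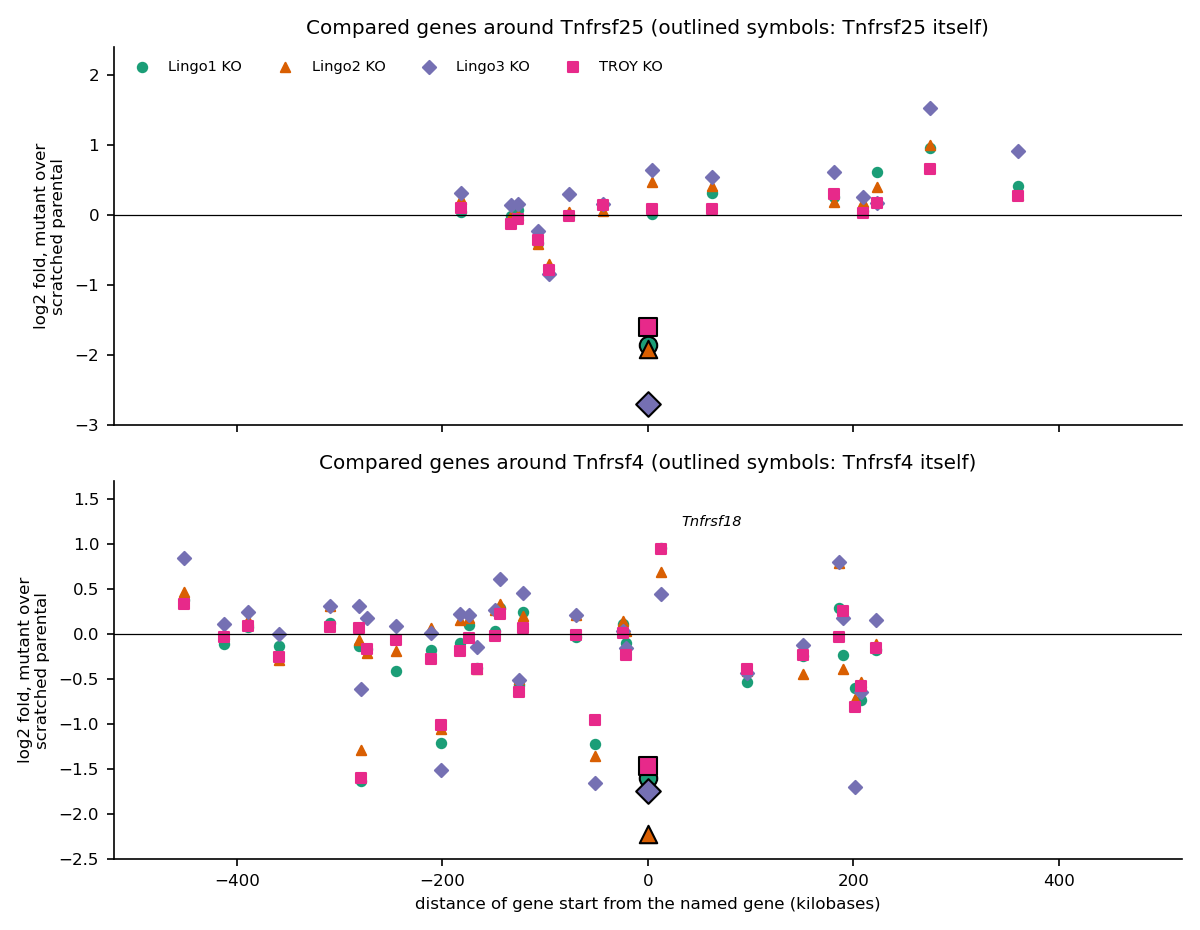
Log2 fold of each mutant over scratched parental cells (y axis) for compared genes by distance in kilobases between gene starts (x axis), around Tnfrsf25 in the upper and Tnfrsf4 in the lower panel, with 1 symbol per mutant and outlined symbols for the named gene. Tnfrsf25 stands below all of its 14 neighbours, Tnfrsf4 below most of its 29, and Tnfrsf18 beside it is above 0 in every mutant, though below 0 in every mutant with unscratched parental cells as control.

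Tnfrsf18, which encodes GITR, a receptor best known on regulatory T cells, did not follow its neighbour Tnfrsf4. It stood at 1.91, 1.59, 1.35 and 1.89 CPM in the libraries labelled Lingo1 KO, Lingo2 KO, Lingo3 KO and TROY KO, against 0.986 CPM in scratched and 2.34 CPM in unscratched parental cells. The 4 mutants lay between the parental libraries. It was 2.37-fold lower (1.52 to 3.78) in scratched than in unscratched parental cells, on 30 against 67 counts. This was the 1 member of 21 (4.76%) called lower after the scratch, where 0.0166% of all genes were. No member was called higher, where 0.0662% of all genes were. With scaling by total counts in place of TMM, the bound nearest to 1 no longer passed 1.5-fold and the call was lost. Tnfrsf18 passed the rule in no mutant, and its log2 fold changed sign with the control, at 0.96, 0.69, 0.45 and 0.94 against scratched and -0.29, -0.55, -0.80 and -0.30 against unscratched parental cells. It overlaps the exons of Gm16008 on the opposite strand, whose reads cannot be told apart if strand was not kept.

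Of the markers of lymphocytes, the cells in which OX40 and GITR are best known, most were at or near 0 and 2, Lck and Cd28, reached the minimum level. Lck had 32 to 49 counts per library, and Cd28 had 25, 36, 107 and 37 counts in the mutants, against 30 and 20 in scratched and unscratched parental cells. Cd3d, Cd8a and Ms4a1 had 0 counts in all 6 libraries, and Ptprc, the pan-leukocyte marker CD45, had 0 to 3. Foxp3 had 1, 3, 14 and 8 counts in the mutants, against 7 and 9 in scratched and unscratched parental cells. Cd4 had 4, 4, 10 and 3 counts in the mutants, against 0 and 2. The 12 markers of the list summed to 2.80 to 5.74 CPM in the mutants, against 2.73 CPM in scratched and 2.79 CPM in unscratched parental cells. The highest sum was that of the library labelled Lingo3 KO, where Cd28 was 3.56-fold higher (2.35 to 5.53). Of the macrophage list, Cd68 reached the minimum level, with 44 to 87 counts per library, and Mrc1 had 20 to 44. Lyz2 had 15, 27, 14 and 5 counts in the mutants, against 3 and 4 in scratched and unscratched parental cells. Csf1r had 0 to 7 counts per library, Itgam 0 to 3, and Adgre1 0 in every library. The sum of the macrophage list was 3.26 to 4.60 CPM in the mutants, against 2.86 and 2.76 CPM in scratched and unscratched parental cells.

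The lung epithelial label was met by 8 of 10 markers at 1 CPM or more, among them Sftpb, Sftpc, Nkx2-1 and Cdh1. Sftpd had 0 counts in every library and Krt18 was under the minimum level. The summed level of the 10 markers moved with the mutants, at 3136 to 3460 CPM, against 2366 CPM in scratched and 2590 CPM in unscratched parental cells. Of the 8 measured, 2, 3, 3 and 1 were called higher in the libraries labelled Lingo1 KO, Lingo2 KO, Lingo3 KO and TROY KO, where 1.95%, 2.12%, 4.63% and 1.06% of all genes were. Sftpb stood at 164, 144, 164 and 87.0 CPM in them, against 35.6 and 40.1 CPM, and Sftpc at 40.7, 42.0, 81.9 and 19.8 CPM, against 18.3 and 16.5 CPM.

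The fibroblast list, nearly all of it Dcn, summed to 2745 to 3461 CPM in the mutants, against 2578 CPM in scratched and 2824 CPM in unscratched parental cells. Of its 4 measured genes, 2, 2, 3 and 2 were called higher in the libraries labelled Lingo1 KO, Lingo2 KO, Lingo3 KO and TROY KO, where 1.95%, 2.12%, 4.63% and 1.06% of all genes were. Col1a1 stood at 170.2, 136, 398 and 146 CPM in them, against 44.8 and 62.3 CPM, and Pdgfrb had 52, 37, 348 and 13 counts, against 1 and 3. The endothelial list, nearly all of it Tek, summed to 162 to 188 CPM in the mutants, against 95.4 and 103 CPM. Of its other markers, 3 set the scratched parental library apart: Vwf had 11 to 37 counts in the mutants, against 169 in scratched and 16 in unscratched parental cells, and Kdr had 13 to 21, against 74 and 12. Cdh5 had 0 to 1 counts in the mutants, against 20 and 0. Tnfrsf25 and Tnfrsf4 were as high in the unscratched as in the scratched parental library. The part of these differences in the results on the superfamily was not tested.

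The library labelled Lingo3 KO had most of the higher calls. In it 5 of 21 members (23.8%) were higher than in scratched parental cells, where 4.63% of all genes were: Tnfrsf8, Tnfrsf22, Tnfrsf23, Tnfrsf21 and Tnfsf9. In the library labelled Lingo2 KO it was 1 member (4.76%), Tnfrsf22, where 2.12% of all genes were. In the libraries labelled Lingo1 KO and TROY KO no member was called higher, where 1.95% and 1.06% of all genes were. Of the members called, Tnfrsf8, Tnfrsf22 and Tnfrsf23 were under 1 CPM on average in parental cells and met the minimum level through the mutants, so no support is drawn from their number.

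Tnfrsf8 encodes CD30, a receptor without a death domain that binds TRAF proteins and is best known on activated lymphocytes. It stood at 1.16, 1.42, 3.61 and 1.03 CPM in the libraries labelled Lingo1 KO, Lingo2 KO, Lingo3 KO and TROY KO, against 0.658 CPM in scratched and 0.384 CPM in unscratched parental cells. The library labelled Lingo3 KO, with 110 counts, was above every other library, which had 11 to 40 counts. Against scratched parental cells it was 5.49-fold higher (3.39 to 9.33) there. It was also 3.12-fold (2.09 to 4.79), 2.55-fold (1.76 to 3.76) and 3.50-fold (2.33 to 5.40) higher there than in the libraries labelled Lingo1 KO, Lingo2 KO and TROY KO. Its mean over the other 5 libraries was 0.928 CPM, so it met the minimum level only through the library in which it was high.

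Tnfrsf8 lies at chr4:145267137-145315164 on the minus strand, and its start is 53674 bases from that of Tnfrsf1b, which was 1.71-fold higher (1.66 to 1.76) in the library labelled Lingo3 KO and passed the rule in no mutant. The promoter window of Tnfrsf8 is shown because it held 3 of the 4 motifs. It had 1 GC box, 1 AP-1 match, since the pattern TGANTCA is the same on both strands, and kappaB matches at 2 overlapping positions on both strands; capitals mark them.
Tnfrsf8 at chr4:145315115-145315414, minus strand: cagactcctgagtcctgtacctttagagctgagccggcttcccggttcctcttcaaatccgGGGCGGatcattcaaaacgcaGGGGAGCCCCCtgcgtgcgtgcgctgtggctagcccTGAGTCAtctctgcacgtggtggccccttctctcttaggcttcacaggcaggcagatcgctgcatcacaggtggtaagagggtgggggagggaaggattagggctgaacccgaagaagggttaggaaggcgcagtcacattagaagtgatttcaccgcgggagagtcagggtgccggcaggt

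Tnfrsf22 and Tnfrsf23 encode decoy receptors of TRAIL in the mouse, and their starts are 31003 bases apart on chromosome 7. Tnfrsf22 stood at 1.59, 1.98, 2.13 and 1.40 CPM in the libraries labelled Lingo1 KO, Lingo2 KO, Lingo3 KO and TROY KO, against 0.625 CPM in scratched and 0.558 CPM in unscratched parental cells. Tnfrsf23 stood at 2.31, 2.23, 3.02 and 2.06 CPM in the mutants in the same order, against 1.18 CPM in scratched and 0.733 CPM in unscratched parental cells. For both genes every mutant was above both parental libraries, as for 24.2% of all genes compared. Tnfrsf22 was 3.17-fold higher (1.86 to 5.65) in the library labelled Lingo2 KO and 3.41-fold higher (2.02 to 6.03) in that labelled Lingo3 KO. In the libraries labelled Lingo1 KO and TROY KO its folds were 2.54 (1.45 to 4.61) and 2.24 (1.27 to 4.07), short of the rule at the bound.

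Tnfrsf23 was 2.55-fold higher (1.72 to 3.86) in the library labelled Lingo3 KO, and its folds in the other 3 mutants were 1.95, 1.88 and 1.74. Against unscratched parental cells it was higher in each of the 4 mutants, as were 0.828% of all genes. The third gene of the cluster, Tnfrsf26, had 6, 8, 5 and 0 counts in the mutants, against 1 and 0 counts in scratched and unscratched parental cells. Whether reads of the 3 genes could be mistaken for each other was not tested, so the split of their reads is uncertain. Tnfrsf23 and Tnfrsf26 also overlap exons of E230032D23Rik on the opposite strand. Tnfrsf10b, the mouse TRAIL receptor that carries a death domain, stood at 56.4, 52.4, 39.1 and 54.1 CPM in the mutants, against 58.0 and 61.6 CPM in parental cells, and passed the rule in no mutant. The TRAIL gene Tnfsf10 had 9 to 20 counts per library.

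Tnfrsf21 encodes a death domain receptor that is known from neurons and T cells. It stood at 132.5, 121.6, 171.3 and 141.9 CPM in the libraries labelled Lingo1 KO, Lingo2 KO, Lingo3 KO and TROY KO, against 84.2 CPM in scratched and 92.6 CPM in unscratched parental cells. All 4 mutants were above both parental libraries, as for 24.2% of all genes compared. The fold was 2.03 (1.94 to 2.13) in the library labelled Lingo3 KO, just past the rule, and 1.57, 1.44 and 1.69 in the others. With total counts as the scale, or with unscratched parental cells as control (1.85-fold), the call was lost.

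Tnfsf9 was the only ligand called. It stood at 7.87, 8.35, 14.6 and 6.88 CPM in the mutants in the same order, against 6.81 CPM in scratched and 7.29 CPM in unscratched parental cells. The library labelled Lingo3 KO was above the others, and the others lay close together. Tnfsf9 was 2.14-fold higher (1.81 to 2.54) there than in scratched parental cells and 2.12-fold higher (1.79 to 2.51) than in the library labelled TROY KO. Against unscratched parental cells the fold fell just short of the rule, and the gene overlaps Gm11110 on the opposite strand. Its receptor gene Tnfrsf9, which encodes 4-1BB, stood at 11.6, 12.2, 13.0 and 6.95 CPM in the mutants, against 7.30 and 6.32 CPM in scratched and unscratched parental cells. The 3 Lingo lines were above both parental libraries and the TROY line lay between them, with folds of 1.58, 1.67, 1.78 and 0.95 against scratched parental cells, none past the rule.

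**Figure D4:**
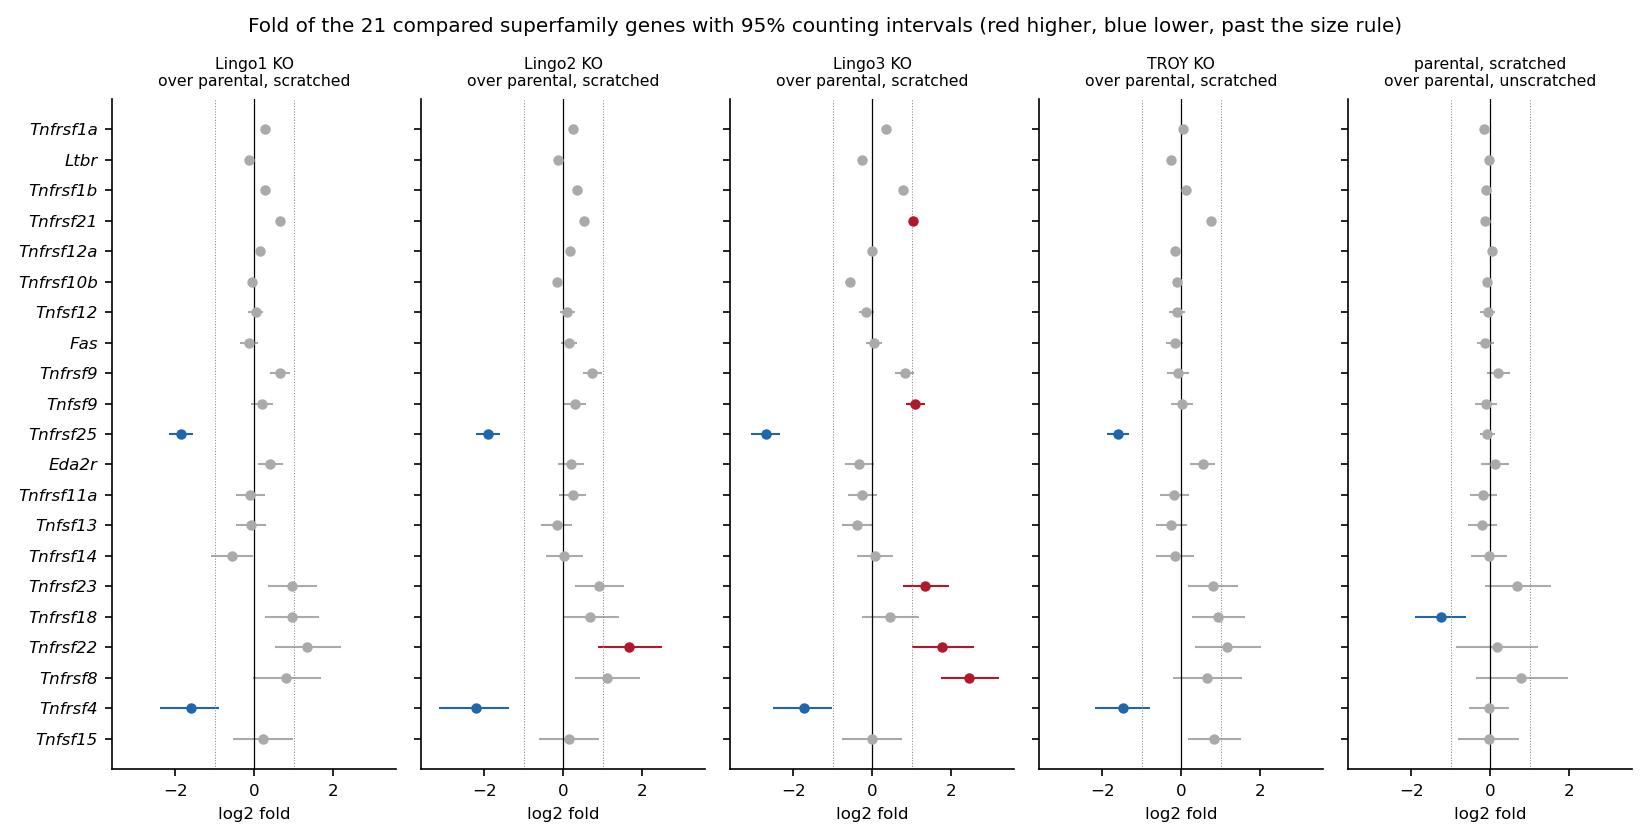
Log2 fold (x axis) with its 95% counting interval for the 21 compared members in the 5 comparisons, 1 panel each, with red for higher and blue for lower calls, and dotted lines at 2-fold. Tnfrsf25 and Tnfrsf4 lie left of 0 in all 4 mutant panels, and most members of the scratch panel lie near 0.

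Tnfrsf1a, Ltbr and Tnfrsf1b stayed within 2-fold of scratched parental cells in every mutant. Tnfrsf1a stood at 484, 477, 510 and 416 CPM in the libraries labelled Lingo1 KO, Lingo2 KO, Lingo3 KO and TROY KO, against 403 CPM in scratched and 452 CPM in unscratched parental cells. The mutant and parental values overlapped. Ltbr stood at 292, 295, 270 and 269 CPM, against 320 and 325 CPM, so all 4 mutants were below both parental libraries. Tnfrsf1b stood at 282, 298, 402 and 255 CPM, against 234 and 253 CPM, and all 4 mutants were above both. Such order alone is common in these data: all 4 mutants were above both parental libraries for 5 of 21 members (23.8%) and for 24.2% of all genes, and below both for 5 of 21 (23.8%) and for 21.9% of all genes. The remaining members that passed no rule were Tnfrsf12a, Tnfsf12, Fas, Eda2r, Tnfrsf11a, Tnfsf13 and Tnfrsf14, each with a highest library less than 2-fold above its lowest. Tnfsf12 and Tnfsf13 share exons with the read-through gene Tnfsfm13, so their counts are uncertain.

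Over the 21 members, the median log2 fold was 0.21, 0.20, 0.05 and -0.07 in the libraries labelled Lingo1 KO, Lingo2 KO, Lingo3 KO and TROY KO. The medians of all genes compared were 0.01, 0.02, 0.01 and 0.02. In scratched against unscratched parental cells the medians were -0.06 for the members and -0.01 for all genes. Between mutants, Tnfrsf8 alone passed the rule for the library labelled Lingo3 KO against that labelled Lingo1 KO (1 of 21 members, 1.65% of all genes) and against that labelled Lingo2 KO (1 of 21, 1.61%). Against the library labelled TROY KO it was 3 of 21 members, where 2.61% of all genes passed. In the other 3 pairs of mutants no member passed, where 0.0166% to 0.364% of all genes did.

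Ngfr, the other receptor described with LINGO1, was below the minimum level at a mean of 0.873 CPM and entered no count above. It had 32, 30, 58 and 8 counts in the libraries labelled Lingo1 KO, Lingo2 KO, Lingo3 KO and TROY KO, against 11 in scratched and 14 in unscratched parental cells. The 3 Lingo lines were above both parental libraries and the TROY line was below both. The fold against scratched parental cells was 3.19 (1.57 to 7.02) in the library labelled Lingo1 KO, 2.94 (1.43 to 6.49) in that labelled Lingo2 KO, 5.26 (2.73 to 11.1) in that labelled Lingo3 KO and 0.735 (0.257 to 2.01) in that labelled TROY KO. Between mutants it was 7.15 (3.40 to 17.4) in the library labelled Lingo3 KO over that labelled TROY KO.

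The members below 1 CPM included 10 of the 14 ligands. Tnf had 0, 1, 3 and 1 counts in the mutants, against 0 and 0 in parental cells, Lta had 2 to 4 counts per library, and Ltb had 2, 2, 11 and 1, against 4 and 5. Tnfsf18, the ligand of GITR, had 19 to 34 counts per library. Tnfrsf13c, a receptor of the B cell factor BAFF, had 19 to 37, and Tnfsf13b, which encodes BAFF, had 3 to 6. Tnfsf13os had 7, 4, 7 and 5 counts, against 26 and 14, and lies opposite exons of Tnfsf13. Edar had 3 to 10 counts per library, and Tnfrsf11b, Tnfrsf17 and Tnfsf8 had 2, 1 and 1 counts over all 6 libraries.

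The adaptors and targets downstream of these receptors were given by list. Of 24 measured adaptors and death signalling genes, 1 was called in any comparison: Traf1, an adaptor whose gene is itself induced by NF-kB, was 2.41-fold higher (1.65 to 3.58) in the library labelled Lingo2 KO, where 2.12% of all genes were higher. It stood at 2.89, 3.26, 2.95 and 2.13 CPM in the mutants, against 1.35 and 1.81 CPM in scratched and unscratched parental cells. None of 13 measured genes of NF-kB and its kinases was called in any comparison, where between 0.0166% and 4.63% of all genes were called in a direction. Of 16 measured NF-kB target genes, Tnfaip2 was 5.42-fold (3.14 to 9.94), 3.77-fold (2.13 to 7.04) and 3.99-fold (2.28 to 7.40) higher in the libraries labelled Lingo1 KO, Lingo2 KO and Lingo3 KO, and its fold was 1.96 (1.04 to 3.84) in that labelled TROY KO. Ccl2, which encodes a monocyte chemokine, was 2.81-fold higher (1.79 to 4.53) in the library labelled Lingo3 KO. The higher calls were thus 1, 1, 2 and 0 of 16 in the 4 mutants, where 1.95%, 2.12%, 4.63% and 1.06% of all genes were higher. Both genes were under 1 CPM in both parental libraries and met the minimum level through the mutants, so no support is drawn from their number. No target gene was called lower, and the list's median log2 fold was 0.23, 0.18, 0.31 and 0.19 in the mutants, beside 0.01, 0.02, 0.01 and 0.02 for all genes. Vcam1, which encodes an adhesion molecule and held most of the list's counts, stood at 802 CPM in the library labelled Lingo3 KO, against 1507 CPM in scratched and 1657 CPM in unscratched parental cells (1.88-fold lower, 1.85 to 1.91, short of the rule). With it the list's summed level there was 1369 CPM, against 2007 and 2181 CPM.

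Of 5 measured genes that govern shedding of ligands and receptors, 1 was called higher in the library labelled Lingo3 KO, where 4.63% of all genes were. It was Timp3, an inhibitor of the TNF-releasing protease, 2.17-fold higher (2.11 to 2.24) there. The protease gene Adam17 itself lay between 160 and 177 CPM in the mutants, against 154 CPM in scratched and 158 CPM in unscratched parental cells. Of the superfamily genes that the symbol rule left out, Relt and Eda reached the minimum level and neither passed the rule. In the Nogo receptor list, 4 genes were measured. Called higher were 1, 1, 2 and 0 of them in the libraries labelled Lingo1 KO, Lingo2 KO, Lingo3 KO and TROY KO. Among all genes, 1.95%, 2.12%, 4.63% and 1.06% were. Lingo1 was 2.33-fold (2.13 to 2.55), 2.12-fold (1.94 to 2.32) and 2.10-fold (1.92 to 2.29) higher in the libraries labelled Lingo1 KO, Lingo2 KO and Lingo3 KO, and its fold was 1.42 (1.29 to 1.56) in that labelled TROY KO. Rtn4rl2, a relative of the Nogo receptor, was 3.83-fold higher (2.67 to 5.63) in the library labelled Lingo3 KO.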

How the data were processed

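RNA from 6 MLE12 cultures, 1 library per group, was sequenced after a messenger RNA preparation, per the labels' protocols. The authors deposited raw read counts per gene and a table of RPKM with log2 ratios; per the submitters' processing notes, Trimmomatic 0.39, STAR, HTSeq, edgeR and build GRCm38 were used; their order and parameters are not stated there. That the second table holds RPKM was read from its values. Of 46078 identifiers, 45143 had a symbol in GENCODE M21.

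The summary lines of the count table, of which reads in no feature made 4.98% to 8.02% of uniquely aligned reads, were left out of library sizes. Counts were scaled here with TMM (edgeR 4.0.16, R 4.3.3). Folds and exact Clopper-Pearson intervals were computed with scipy 1.17.1 in Python 3.11.15 and tested on simulated data. A fold against a library at 0 would use a floor of 3 counts. The authors' deposited log2 ratios differed from the log2 folds computed here by at most 0.0235 over the 21 members.

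The members and the gene lists were chosen with earlier results of these data known. Named are Tnfrsf19, Ngfr, Tnfrsf25, Tnfrsf4, Tnfrsf18, all compared members, and up to 4 genes per list past the size rule. Of the 41 members, 32 had a RefSeq promoter entry. Alternatives were DESeq2 1.42.0 size factors, total counts, no minimum level, a minimum mean of 5 CPM, a fold of 1.5 with a bound of 1.2, and unscratched parental cells as control.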

Additional observations from a re-analysis of the deposited data

How the results depend on the processing

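Each group had 1 library, so no replicate could be left out. No paired analysis was possible because no group has more than 1 library. Of 108 counts of members recomputed under the alternatives, 78 stayed within 1.5 times the reported count and 30 did not. DESeq2 size factors moved none. With total counts, the count lower after the scratch was 0. Without a minimum level, the library labelled Lingo1 KO had 1 higher, and the counts between mutants were 1 for TROY KO against Lingo1 KO, 2 for TROY KO against Lingo2 KO and 5 for Lingo3 KO against TROY KO.

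With a minimum mean of 5 CPM, 0 members were lower after the scratch, 0 were higher and 1 lower in the library labelled Lingo2 KO, 2 higher and 1 lower in that labelled Lingo3 KO, 1 lower in each of those labelled Lingo1 KO and TROY KO, and 1 lower in all 4. All 4 mutants were above both parental libraries for 2 members and below both for 3. For Lingo3 KO the counts were 0 against Lingo1 KO and 0 against Lingo2 KO. With a fold of 1.5 and a bound of 1.2, the higher counts were 5, 4 and 3 in the libraries labelled Lingo1 KO, Lingo2 KO and TROY KO and 1 in all 4. Between mutants, the counts in either direction under that rule were 4 for Lingo3 KO against Lingo1 KO and 3 for Lingo3 KO against Lingo2 KO. They were 1 each for TROY KO against Lingo1 KO and Lingo2 KO, and 6 for Lingo3 KO against TROY KO. That rule gives no value for libraries beyond both parental ones. With unscratched parental cells as control, the higher counts were 2, 3 and 1 for Lingo1 KO, Lingo2 KO and TROY KO, and 1 in all 4. Among all genes, 1.8%, 1.84% and 1.24% were higher in these libraries with this control, and 0.828% in all 4. For the other alternatives no share over all genes was computed, so their counts cannot be set against one. The minimum of 5 CPM leaves fewer members and the wider rule admits more by construction; for the other settings the cause was not tested.

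Of the folds of single members, 267 kept their call or, if not called, stayed inside the reported counting interval. Another 31 were not called and moved outside that interval, 6 came past the rule, 4 dropped below it, and no fold past the rule changed sign. The interval is wide at low counts. The log2 fold of Tnfrsf8 in the library labelled Lingo1 KO went from 0.81 to 1.59 with the unscratched control and stayed inside it. Of the folds short of the rule, those of Tnfrsf18 in the 4 mutants changed sign with the unscratched control, to -0.29, -0.55, -0.80 and -0.30 on the log2 scale, and some folds near 0, such as that of Tnfrsf1a in the library labelled TROY KO, changed sign too. The calls lost were Tnfrsf18 after the scratch and Tnfrsf21 in the library labelled Lingo3 KO (both with total counts), and Tnfrsf21 and Tnfsf9 there with the unscratched control. Depth limits the members near 1 CPM, whose intervals span several fold.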
